A study of Mus musculus with 48 samples.

Results

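The blood vessels of the cortex were followed here through 36 genes, 18 endothelial genes, 10 genes of the blood–brain barrier and 8 genes of mural cells, the pericytes and smooth muscle cells that wrap the vessel wall. They were chosen by symbol from the deposited table of 24444 genes, and all 36 were present and lay above the filter on low values in every group. RNA was sequenced from the dissected cortex of male C57BL/6J mice as embryos of day 14.5 (E14.5) and as mice aged 1 month, 6 months or 12 months. At each age 6 mice were wild type (WT) and 6 were Chd8 V986*/+ heterozygotes (HET), which makes 48 samples in 8 groups. The HET mice carry in the germ line a CRISPR/Cas9 insertion of stop codons into one copy of Chd8, a gene for a chromatin remodeler linked to autism. The line goes back to a male founder that was backcrossed to C57BL/6J, and the WT mice were littermates. No transgene, Cre driver or agent is named for either genotype. The design asks how expression differs between genotypes at each age and between ages within a genotype.

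Brain endothelial cells grow into the embryonic cortex from outside, guided by vascular endothelial growth factor (VEGF) and angiopoietin signals, and are joined to each other by cadherins and tight junctions. In the brain they acquire a barrier, made of sealed junctions, little transcytosis, efflux pumps and carriers for glucose, lactate, lipids and organic anions. Pericytes are recruited through platelet-derived growth factor (PDGF) signalling and are needed for the barrier to form, while the smooth muscle cells of arteries contract and set blood flow. In whole cortex, fewer cells of a type and less RNA of a gene per cell cannot be told apart, so each value below is a level in the tissue.

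Because most members changed between embryo and adult, the DNA before the start sites of a few of them is shown. RefSeq promoters (assembly GRCm38.p6) were matched by symbol for 25 of the 36 members and gave 31 windows. Cdh5, Esam, Foxq1, Myh11, Pdgfrb, Pecam1, Podxl, Sox17, Sox18, Tagln and Vwf had no entry. Each line holds the 250 bases upstream of a start site, 5′ to 3′ along the gene's strand, and capitals mark AGGAAG, a core recognised by ETS factors such as the member Erg, or its reverse complement. Ly6c1 (minus strand, chr15:75048664-75048913), Slco1a4 (minus strand, chr6:141856221-141856470) and Abcb1a (plus strand, chr5:8566841-8567090) are shown as genes of the endothelium that rose most after E14.5. Tie1 (minus strand, chr4:118489850-118490099) and Kdr (minus strand, chr5:75978456-75978705) are shown as genes that fell.
Ly6c1: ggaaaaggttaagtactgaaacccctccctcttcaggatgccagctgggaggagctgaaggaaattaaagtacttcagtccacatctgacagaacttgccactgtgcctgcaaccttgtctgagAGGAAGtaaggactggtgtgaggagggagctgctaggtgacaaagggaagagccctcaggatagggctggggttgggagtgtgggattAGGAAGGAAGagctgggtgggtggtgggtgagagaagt
Slco1a4: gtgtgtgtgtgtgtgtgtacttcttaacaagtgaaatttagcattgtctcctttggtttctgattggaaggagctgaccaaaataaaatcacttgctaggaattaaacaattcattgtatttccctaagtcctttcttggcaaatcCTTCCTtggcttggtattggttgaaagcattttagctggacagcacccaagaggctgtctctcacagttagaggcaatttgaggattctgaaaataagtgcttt
Abcb1a: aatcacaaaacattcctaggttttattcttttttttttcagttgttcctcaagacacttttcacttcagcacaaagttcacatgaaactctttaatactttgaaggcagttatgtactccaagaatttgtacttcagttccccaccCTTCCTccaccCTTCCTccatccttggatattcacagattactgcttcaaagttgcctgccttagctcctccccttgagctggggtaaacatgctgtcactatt
Tie1: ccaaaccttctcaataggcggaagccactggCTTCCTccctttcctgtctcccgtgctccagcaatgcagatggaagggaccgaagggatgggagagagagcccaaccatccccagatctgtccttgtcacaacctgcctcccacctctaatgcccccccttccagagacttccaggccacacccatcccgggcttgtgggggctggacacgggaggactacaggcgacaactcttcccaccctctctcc
Kdr: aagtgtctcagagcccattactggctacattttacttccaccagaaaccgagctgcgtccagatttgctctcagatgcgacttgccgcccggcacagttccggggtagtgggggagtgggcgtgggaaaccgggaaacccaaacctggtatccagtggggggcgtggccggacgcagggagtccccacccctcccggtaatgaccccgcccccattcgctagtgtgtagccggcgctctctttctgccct

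Ly6c1 had 2 windows, of which the one with the more matches is printed. It held 3 matches, Abcb1a 2, Slco1a4 and Tie1 1 each and Kdr 0. AGGAAG on either strand was found in the upstream part for 9 of 11 endothelial genes with a promoter (Egfl7, Emcn, Eng, Erg, Flt1, Itm2a, Ly6c1, Robo4 and Tie1), 3 of 9 barrier genes (Abcb1a, Foxf2 and Slco1a4) and 0 of 5 mural genes. Counted by window, it was present in 10 of 16 endothelial, 3 of 10 barrier and 0 of 5 mural windows. These made 13 of 31 member windows (41.9%), against 29.5% of all 32851 windows. The counts by gene have no such share beside them. Another ETS core, CGGAAG, was in 2 member windows (6.45%), those of Tie1 and Lsr, against 13.6% of all windows. TATAAA was in 4 member windows (12.9%, those of Erg, Flt1, Ly6c1 and Vtn) against 12.4% of all, and CCGCCC in 14 (45.2%) against 32.7%. GTAAACA, a forkhead core, was in 1 member window (Abcb1a, 3.23%) against 3.17% of all, and CTTTGAT, a TCF/LEF core, in 1 (Egfl7, 3.23%) against 3.21%. The CArG box of contractile genes was in 0 of the member windows and in 1.47% of all. The contractile genes Myh11 and Tagln had no window and were not searched. AGGAAG and CGGAAG share their last 5 letters and cannot match at the same place. These matches describe letters in these windows and say nothing of binding.

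Values are given on the deposited log2 scale, on which the most frequent value, 2.1433, was taken as the floor. Differences are log2 differences with the standard error (SE) of the fit, and levels are not corrected for gene length and are not compared between genes. A gene was called changed when its p from limma, adjusted by the Benjamini-Hochberg method over all genes tested, was below 0.1. Chd8 was lower in HET mice at every age, and no HET mouse overlapped a WT mouse of its age. The differences were −0.63, −0.67, −0.64 and −0.54 at E14.5, 1, 6 and 12 months (limma adjusted p = 0.0261, 3.01e-06, 1.07e-07 and 0.00261). A few mice stood apart. HET replicate 2 at E14.5 and HET replicate 3 at 1 month had the lowest endothelial and mural means of their ages, and HET replicate 2 at 6 months had the highest endothelial and mural means. WT replicate 6 at 12 months lay farther from the mean of its group over all genes than any other mouse (median absolute deviation 0.231) and had the lowest endothelial mean of the WT mice of its age (8.52). Values without these mice are given beside the comparisons they enter, and these mice were picked out after the values were seen.

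From E14.5 to 1 month, the vascular genes of WT cortex did not move as 1 group. All 5 carriers and pumps of the barrier class and all 3 contractile genes rose, endothelial genes went both ways, and 6 endothelial genes were not called. In all, 16 members rose and 14 fell, 30 of 36, when 85.7% of all 17285 genes tested were called (43.4% higher, 42.3% lower). Among endothelial genes 5 rose and 7 fell, with a median difference of −0.04. Among barrier genes 6 rose and 4 fell (median 0.51), and among mural genes 5 rose and 3 fell (median 0.55). The median over all genes tested was 0.02. In 23 of the 36 members the 6 embryos did not overlap the 6 mice of 1 month, as in 68.5% of all genes. The share of members called was therefore near that of all genes.

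**Figure D1:**
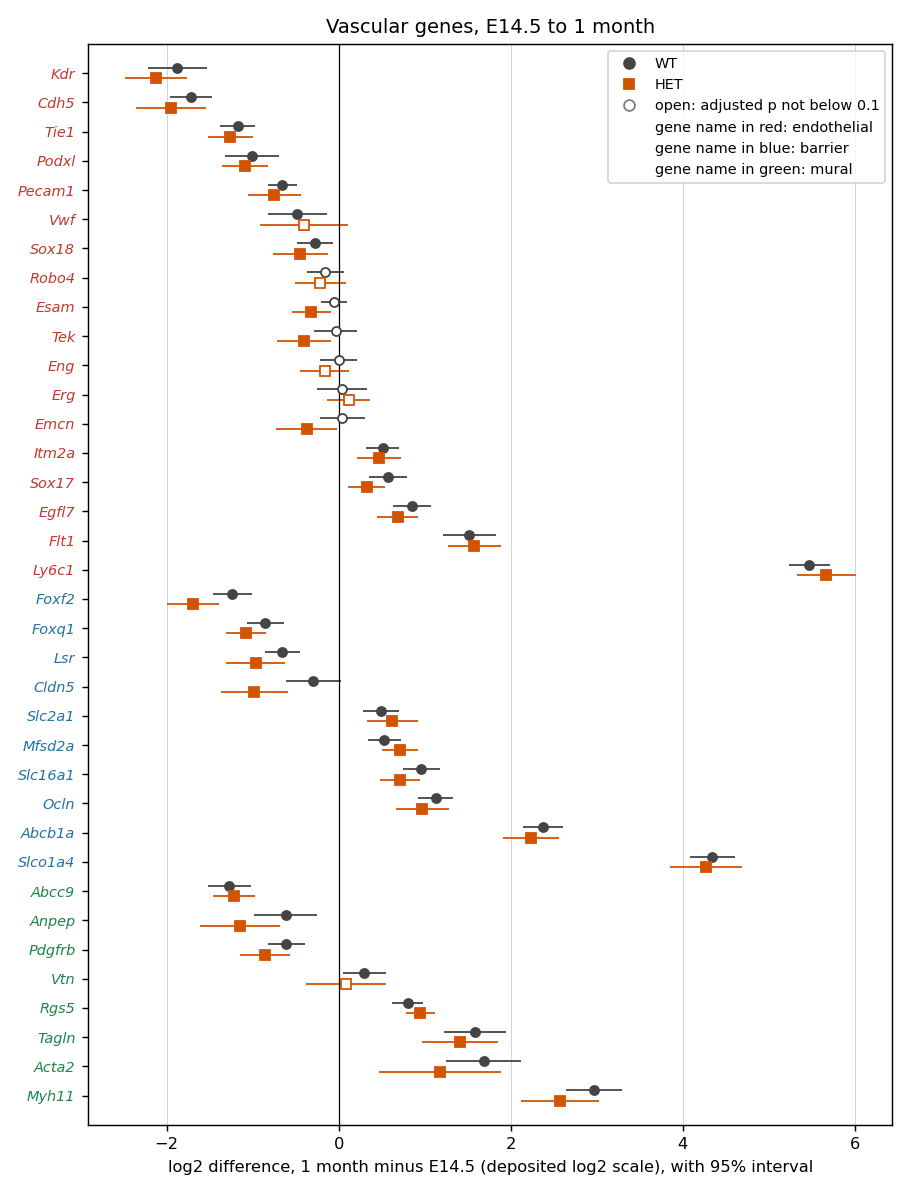
Log2 difference between 1 month and E14.5 for the 36 vascular genes, with 95% intervals, in WT (circles) and HET (squares) mice; filled symbols passed an adjusted p below 0.1 and the colour of the name gives the class. Ly6c1 and Slco1a4 lie farthest right, at 5.47 and 4.35 in WT, and Kdr and Cdh5 farthest left, at −1.87 and −1.71.

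Among endothelial and barrier genes the largest rises were those of Ly6c1, Slco1a4 and Abcb1a. Ly6c1, a surface protein anchored in the membrane of brain endothelial cells, measured 3.57, 3.997 and 4.16 (lowest, median and highest of 6) in WT embryos and 9.27, 9.41 and 9.60 at 1 month. The embryos lay close to the floor and far from every older mouse. The difference was 5.47 (SE 0.11, limma adjusted p = 6.57e-16), or 44.5-fold on this scale, and reads of its near copy Ly6c2 could have been shared with it. Slco1a4, a carrier of organic anions, went from 5.74, 6.20 and 6.47 to 10.20, 10.46 and 10.75, a difference of 4.35 (SE 0.12, limma adjusted p = 2.25e-14). It belongs to a family of close copies, as does Abcb1a, the efflux pump P-glycoprotein, which went from 7.02, 7.25 and 7.63 to 9.38, 9.65 and 9.88. Abcb1a rose by 2.37 (SE 0.11, limma adjusted p = 7.39e-12), and its groups were also fully separate. All 3 products sit at the endothelial surface.

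Of the other barrier genes, 4 rose by less. Ocln, the tight junction protein occludin, rose by 1.13, and Slc16a1, the lactate and ketone carrier Mct1, by 0.96. Mfsd2a, which carries lysophospholipids and restrains transcytosis, rose by 0.53, and Slc2a1, the glucose transporter Glut1, by 0.49. The remaining 4 fell. Foxf2, a forkhead factor needed in pericytes for the barrier, had the largest fall of the class, from 8.01, 8.18 and 8.30 to 6.72, 6.89 and 7.40. Its groups did not overlap and differed by −1.24 (SE 0.11, limma adjusted p = 1.87e-08). Foxq1, another forkhead factor, fell by 0.86 and Lsr, a protein of tricellular junctions, by 0.66. Cldn5, the main claudin of brain endothelial junctions, fell by 0.30 with an adjusted p of 0.079 in limma and overlapping groups. Carriers and pumps thus rose in 5 of 5 cases, whereas of 3 junction genes 1 rose and 2 fell and both transcription factors fell.

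Endothelial genes went both ways. Kdr, the VEGF receptor that drives sprouting, had the largest fall of the class, from 10.21, 10.61 and 10.91 in WT embryos to 8.19, 8.65 and 9.24 at 1 month. All 6 embryos were above all 6 mice of 1 month, and the difference was −1.87 (SE 0.16, limma adjusted p = 1.86e-08), a 3.67-fold lower level. Cdh5, the vascular cadherin, fell by 1.71, Tie1, an orphan receptor of the angiopoietin pathway, by 1.17, the sialomucin gene Podxl by 1.01 and the adhesion gene Pecam1 by 0.65, each without overlap. Vwf, which encodes a clotting protein, fell by 0.48 and the transcription factor gene Sox18 by 0.28, with overlap. Flt1, the VEGF receptor that also acts as a decoy, rose by 1.52, against the fall of Kdr. The secreted factor gene Egfl7 rose by 0.85, Sox17 by 0.57 and the membrane protein gene Itm2a by 0.51. The angiopoietin receptor gene Tek, with Esam, Eng, Emcn, Erg and Robo4, had differences from −0.15 for Robo4 to 0.04 for Erg and Emcn, and none was called. Their 95% intervals reached from −0.37 (Robo4) to 0.33 (Erg).

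In the mural class, genes of contraction rose and pericyte receptor and channel genes fell. Myh11, the smooth muscle myosin heavy chain, went from 4.75, 4.80 and 5.22 in WT embryos to 7.33, 7.95 and 8.33 at 1 month, a difference of 2.97 (SE 0.16, limma adjusted p = 3.49e-11) with no overlap. Acta2, smooth muscle actin, rose by 1.69 and Tagln, the actin-binding protein transgelin, by 1.58, also with separate groups. Acta2 shares long stretches with other actin genes. Rgs5, a regulator of G protein signalling in pericytes, rose by 0.80 and Vtn, vitronectin, by 0.30. Abcc9, a subunit of the potassium channel of pericytes, went from 9.30, 9.62 and 9.99 to 7.96, 8.46 and 8.54 and had the largest fall, −1.27 (SE 0.12, limma adjusted p = 4.77e-08). Pdgfrb, the PDGF receptor that defines mural cells, fell by 0.61 and the peptidase gene Anpep by 0.62. All 3 contractile genes were thus higher at 1 month, and 3 of the 5 others were lower.

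**Figure D2:**
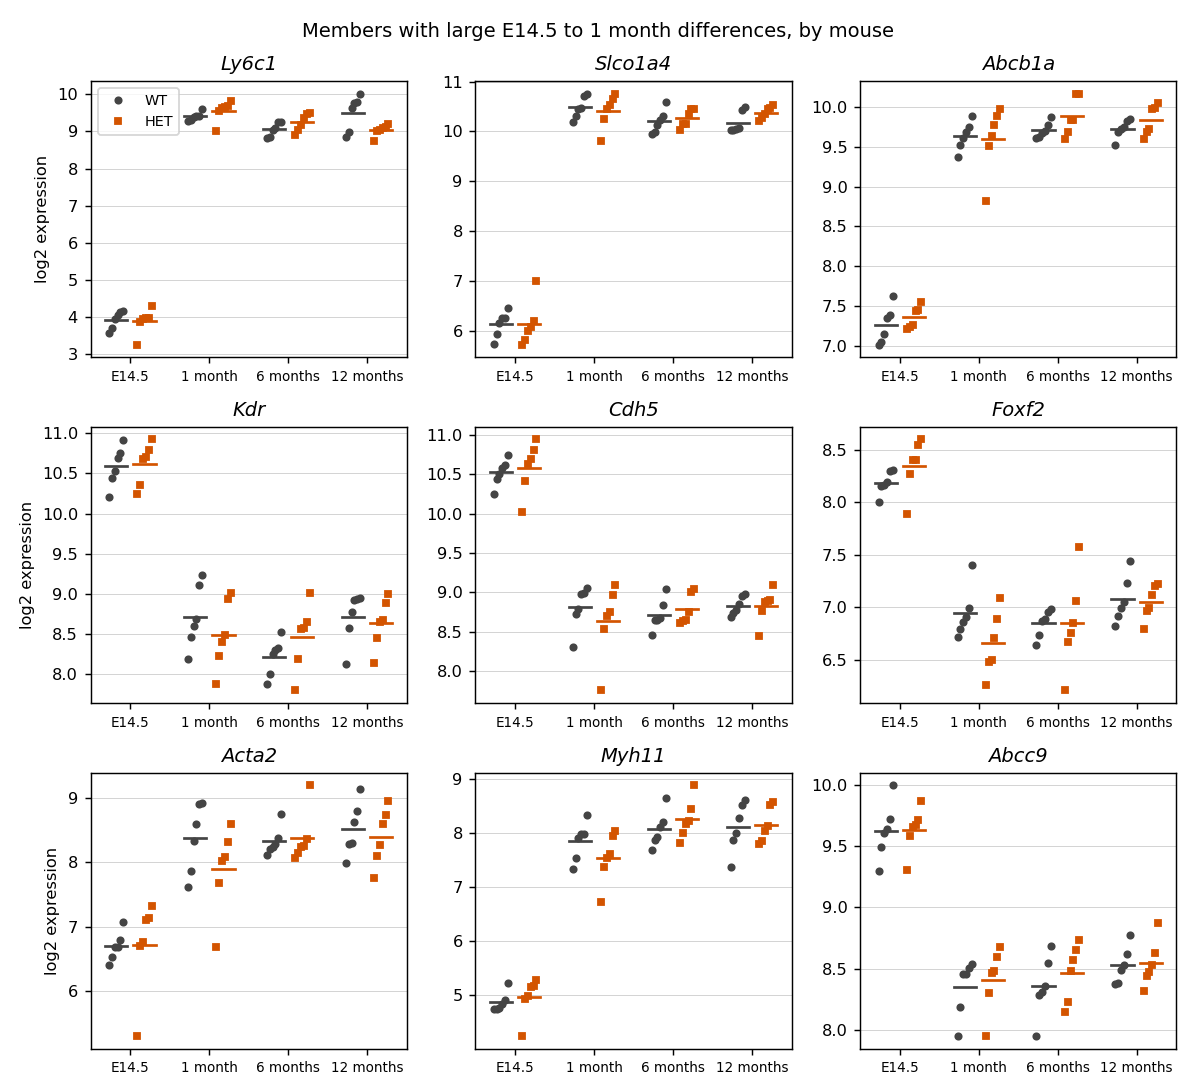
Log2 expression of 9 members in each of 48 mice by age, WT as circles and HET as squares, ordered by value within a group and with bars for group means. Ly6c1, Slco1a4, Abcb1a, Acta2 and Myh11 step up after E14.5 and Kdr, Cdh5, Foxf2 and Abcc9 step down, and the adult ages lie close together.

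In HET mice the same step gave 15 rises and 16 falls, 31 of 36 members, when 86.1% of all 17227 genes tested were called (43.7% higher, 42.4% lower). HET embryos and HET mice of 1 month did not overlap in 22 members, as in 69.4% of all genes. The values for the leading genes were 5.67 for Ly6c1, 4.27 for Slco1a4, 2.24 for Abcb1a, 2.58 for Myh11, −2.13 for Kdr, −1.95 for Cdh5, −1.69 for Foxf2 and −1.22 for Abcc9. Cldn5 fell by 0.98 in HET mice (limma adjusted p = 0.000114) without overlap. Class medians were −0.35, 0.67 and 0.52 for endothelial, barrier and mural genes. Leaving out HET replicate 2 at E14.5 and HET replicate 3 at 1 month, also left 31 members called, all of them shared. The difference of the step between genotypes was called for 0 of 36 members in limma, and for 0% of 17311 genes. It had an unadjusted p below 0.05 for 4 members, Cldn5 (−0.68, SE 0.27), Foxf2 (−0.45), Emcn (−0.42) and Esam (−0.27), against 4.6% of all genes. In all, 8 members had a positive and 28 a negative difference, with class medians of −0.13, −0.19 and −0.23. Without both of those mice 0 were called, 10 were positive and 26 negative, the class medians were −0.10, −0.09 and −0.23, and Cldn5 differed by −0.59 (SE 0.26).

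The step also carried changes in the other genes of these pathways and in other cell types. Of 38 genes of vascular signalling, 11 rose and 25 fell in WT mice (median −0.81). S1pr1, a sphingosine 1-phosphate receptor, had the largest rise of that list (2.52, SE 0.06, limma adjusted p = 3.92e-15). Cxcr4, a chemokine receptor, had the largest fall (−3.90, SE 0.09, limma adjusted p = 2.7e-15), and both are also expressed outside vessels. Of 20 further barrier genes, 10 rose and 5 fell, led by the thyroid hormone carrier gene Slco1c1 (2.66) and the amino acid transporter gene Slc38a5 (−2.16). Of 16 further mural genes, 9 rose and 7 fell, with Cnn1, the contractile protein calponin, at 1.67 and the transcription factor gene Zic1, which neural cells also express, at −3.92.

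Markers of other cells changed beside these genes. All 8 microglial, 6 astrocyte, 6 neuronal and 5 oligodendrocyte markers rose, with medians of 2.71, 5.86, 2.89 and 7.69, and all 12 erythroid markers fell (median −2.37). Of 8 perivascular and meningeal fibroblast markers 6 fell and 0 rose (median −1.38). Their mean per mouse was 9.21 to 9.91 in WT embryos and 7.53 to 8.42 at 1 month, and the collagen gene Col3a1, with the largest fall (−4.35), stayed above the floor in every mouse. Of 6 choroid plexus markers 1 rose and 4 fell, and of 15 midbrain, hindbrain and spinal cord markers tested, 11 fell and 0 rose. The part of these cells in the changes of the vascular genes was not tested. Relative to the medians of the other cell types, the vascular class medians of −0.04 to 0.55 were small, with members moving both ways. Without regard to sign, the median differences were 0.54, 0.91 and 1.04 for endothelial, barrier and mural genes, against 0.79 over all genes.

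Between 1 and 6 months, most vascular genes that changed in WT cortex fell. There were 13 falls and 1 rise among the 36 members, while 24.6% of all 17255 genes were called, 12.3% in each direction. By class, 1 rose and 6 fell among endothelial genes, 0 and 5 among barrier genes and 0 and 2 among mural genes, with medians of −0.19, −0.20 and −0.06 beside 0.01 over all genes tested. Mfsd2a had the largest difference, from 9.49, 9.79 and 10.15 at 1 month to 8.43, 8.78 and 9.84 at 6 months. Replicates 2 and 3 of 6 months lay within the range of 1 month, so the groups overlapped, and the other 4 lay below it. The difference was −0.81 (SE 0.19, limma adjusted p = 0.00772). Cldn5 fell by 0.58, Lsr by 0.45, Slco1a4 by 0.28 and Slc16a1 by 0.16. The barrier gene with the largest positive value was Abcb1a, at 9.38, 9.65 and 9.88 and then 9.61, 9.69 and 9.87, a difference of 0.07 (SE 0.07) that was not called.

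Among endothelial genes, Itm2a went from 10.41, 10.53 and 10.76 to 9.74, 9.99 and 10.34, and no mouse of 6 months reached the lowest of 1 month. The difference was −0.53 (SE 0.09, limma adjusted p = 0.000755). Kdr fell by 0.50, Sox17 by 0.38, Ly6c1 by 0.35, Eng, a co-receptor for transforming growth factor beta, by 0.30 and Egfl7 by 0.22. Flt1 was again opposite to Kdr, with 9.89, 10.41 and 10.61 at 1 month and 10.40, 10.64 and 10.83 at 6 months. Its groups overlapped, and it rose by 0.29 (SE 0.10, limma adjusted p = 0.0501). Of the mural genes, Anpep went from 6.45, 6.88 and 7.41 to 6.07, 6.45 and 6.90, a difference of −0.43 (SE 0.17, limma adjusted p = 0.0944). Rgs5 fell by 0.29 without overlap. Myh11 had the largest positive value of the class, with 7.33, 7.95 and 8.33 at 1 month and 7.69, 8.02 and 8.64 at 6 months, and its difference of 0.23 (SE 0.16) was not called. In 4 members (Itm2a, Ly6c1, Lsr and Rgs5) the ages did not overlap, each lower at 6 months, as in 4.76% of all genes (8.47% in either direction). Of the fibroblast markers 3 of 8 fell over the same step (median −0.28), and 7 of 10 erythroid markers (median −0.61). All 5 oligodendrocyte markers fell (median −0.89), as did 5 of 8 microglial (−0.18) and 3 of 6 astrocyte markers (−0.18), while of 6 neuronal markers 2 rose and 1 fell (0.10). Their part was not tested. The count depended on the fit, and Flt1 and Anpep were not called in 1 fit of all 48 samples (limma adjusted p = 0.139 and 0.162), where 9 members fell and 0 rose.

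In HET mice, 2 members rose and 4 fell over this step, when 26.8% of all genes were called (14% higher, 12.8% lower). Mfsd2a went from 9.50, 9.98 and 10.25 to 8.71, 9.10 and 9.68 and fell by 0.80 (SE 0.15, limma adjusted p = 0.00135), close to the WT value. Ly6c1, Itm2a and Rgs5 also fell, by 0.32, 0.28 and 0.25, and Flt1 rose by 0.52 as in WT. Myh11 rose by 0.72 (SE 0.20, limma adjusted p = 0.0178). Class medians were −0.03, 0.04 and 0.13. Without HET replicate 2 at 6 months, 7 members were called, the same 6 among them. Without HET replicate 3 at 1 month 2 rose and 7 fell, and the class medians were −0.10, −0.06 and 0.02. Without both mice 2 rose and 9 fell, Mfsd2a differed by −0.995 (SE 0.12) and Myh11 by 0.43 (SE 0.13), and the class medians were −0.15, −0.06 and −0.02. The difference between the HET and WT steps was called for 0 of 36 members in limma and for 0% of all genes, and 1 member, Cldn5, had an unadjusted p below 0.05 (0.80, SE 0.27, limma adjusted p = 1), against 3.36% of all genes. It was positive in 34 members and negative in 2, with class medians of 0.17, 0.20 and 0.31. Without both mice it was positive in 22 and negative in 14, with class medians of 0.02, 0.07 and 0.10 and with Cldn5 at 0.63 (SE 0.26).

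Between 6 and 12 months, no member was called in WT mice in limma, and 0.00579% of all genes were. An unadjusted p below 0.05 was reached by 10 members, all higher at 12 months, against 6.75% of all genes (3.08% higher). Cldn5 had the largest value, from 8.67, 9.14 and 9.50 at 6 months to 9.60, 9.64 and 9.83 at 12 months. The groups did not overlap, which held for 2 members, Cldn5 and Pecam1 (0.393% of all genes, 0.231% higher). The level at 12 months was back at that of 1 month, with means of 9.68 at both ages. The difference was 0.59 (SE 0.11, limma adjusted p = 0.305). Sox18 went from 6.59, 7.30 and 7.68 to 7.67, 7.78 and 7.93, a difference of 0.58 (SE 0.15, limma adjusted p = 0.724). Kdr was 0.50 higher, Ly6c1 0.45, Pecam1 0.36 without overlap, Podxl 0.31, Lsr 0.26, Egfl7 0.22 and Flt1 0.19. Vtn, the only mural gene among the 10, went from 10.12, 10.31 and 10.57 to 10.39, 10.52 and 10.80, a difference of 0.25 (SE 0.08). None of these differences passed the test over all genes. Without WT replicate 6 of 12 months 0 members were called, with Cldn5 at 0.57 and Sox18 at 0.59.

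The largest negative values over this WT step were small. Itm2a measured 9.74, 9.99 and 10.34 at 6 months and 9.42, 9.71 and 10.15 at 12 months (−0.25, SE 0.14), and Tagln 7.14, 7.67 and 8.07 and then 6.96, 7.41 and 8.17 (−0.15, SE 0.19). Slc2a1, the lowest of the barrier class, measured 11.04, 11.18 and 12.00 and then 11.06, 11.36 and 11.63, a difference of −0.03 (SE 0.16) whose sign turned under quantile normalisation. The groups overlapped in all 3 genes. Class medians were 0.17, 0.10 and 0.11, with −0.01 over all genes. In HET mice 1 member was called, Mfsd2a, when 3.43% of all genes were (2.36% lower). It went from 8.71, 9.10 and 9.68 to 8.17, 8.51 and 8.92, with overlap, and fell by 0.60 (SE 0.15, limma adjusted p = 0.0589). It was not called without HET replicate 2 or 3 of 6 months or without HET replicate 2, 3 or 4 of 12 months. At an unadjusted p below 0.05 there were 2 members, Mfsd2a and Pdgfrb (0.25, SE 0.11), against 15.9% of all genes. HET class medians were 0.00, −0.01 and 0.05, and Cldn5, Sox18, Kdr and Ly6c1, the leading genes of WT mice, had HET values of 0.09, −0.07, 0.17 and −0.21.

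**Figure D3:**
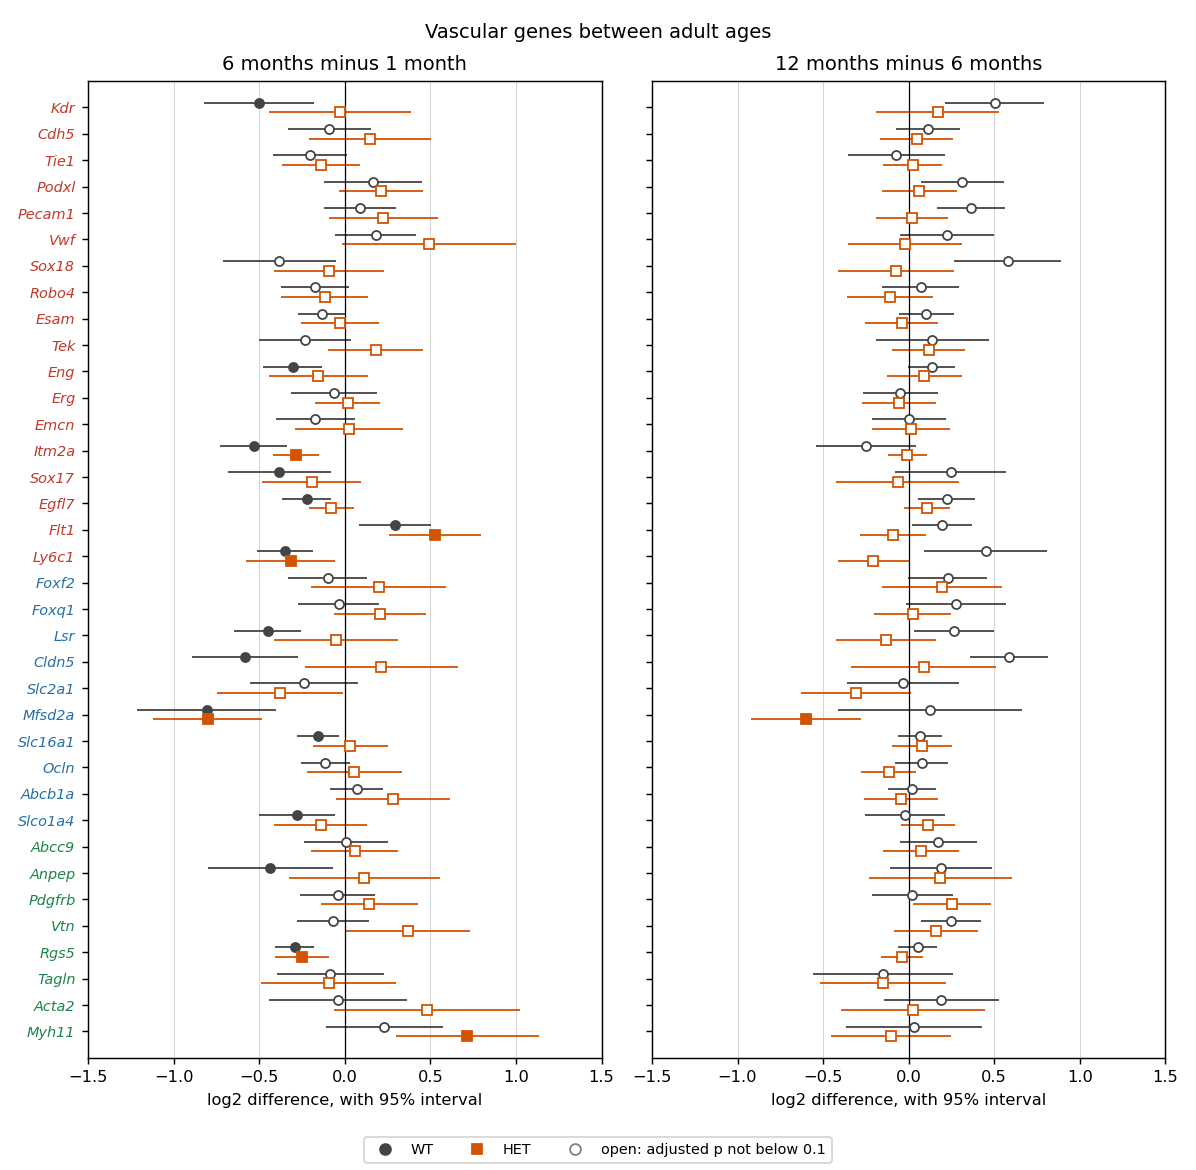
Log2 differences with 95% intervals between 1 and 6 months (left) and 6 and 12 months (right) for the 36 vascular genes in WT (circles) and HET (squares) mice; filled symbols passed an adjusted p below 0.1. In WT mice 13 filled symbols lie below 0 and 1 above it on the left and none is filled on the right.

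Between genotypes, no vascular gene passed the test at any age. The counts were 0 of 36 in limma at E14.5, 1, 6 and 12 months, where 0.00593%, 0.139%, 0.0927% and 0.0463% of all genes were called. At an unadjusted p below 0.05 the members numbered 0, 2, 3 and 10, and the shares of all genes were 4.56%, 8.8%, 7.59% and 11.6%. The 2 of 1 month were lower in HET mice (5.07% of all genes) and the 3 of 6 months higher (3.54%), while at 12 months 8 were lower (5.39%) and 2 higher (6.18%). WT and HET mice overlapped in all 36 members at every age, and failed to overlap in 0.261%, 0.825%, 0.527% and 0.868% of all genes. The differences ranged from −0.15 to 0.20 at E14.5, −0.53 to 0.17 at 1 month, −0.08 to 0.27 at 6 months and −0.57 to 0.46 at 12 months, against −0.54 to −0.67 for Chd8 itself.

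At E14.5, class medians of HET minus WT were 0.07, 0.07 and 0.02 for endothelial, barrier and mural genes, with 28 members above 0 and 8 below. Without HET replicate 2 they were 0.14, 0.10 and 0.17, and 0 members were called in limma. In that fit 30 members were above 0 and 6 below. An unadjusted p below 0.05 was then reached by 8 members, against 0 with this embryo kept. The 8 have no share of all genes beside them. HET replicate 2 had the lowest fibroblast mean (8.28, the other HET embryos reaching up to 10.03). WT replicate 5 was kept in the fit without that HET embryo. This WT embryo had the lowest endothelial, barrier and mural means of the WT embryos (8.41, 8.35 and 8.105). Its means of the regional (7.06) and erythroid (10.28) markers were the highest. All 12 erythroid markers were lower in HET embryos (median −0.33) and so were all 16 midbrain, hindbrain and spinal cord markers tested (median −1.23), with none called. The mean per embryo of the regional markers spanned 3.32 to 7.06 in WT and 3.47 to 4.85 in HET mice, and that of the erythroid markers 8.53 to 10.28 and 8.27 to 9.28. Without HET replicate 2 the medians were −1.08 for regional and −0.16 for erythroid markers, and that of the fibroblast markers went from −0.03 to 0.23. A fit with the mean of the regional markers as a covariate moved each class median by less than 1 SD between mice. Beyond that fit, the part of these markers in the vascular values was not tested.

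At 1 month, 28 members were lower and 8 higher in HET mice, with class medians of −0.07, −0.10 and −0.26. Cldn5 measured 9.37, 9.55 and 10.23 in WT mice and 8.35, 9.23 and 9.63 in HET mice. The HET mice spread below the WT mice but overlapped them, and the difference was −0.53 (SE 0.19, limma adjusted p = 0.431). Lsr measured 7.58, 7.84 and 8.002 in WT and 6.81, 7.58 and 7.85 in HET mice, a difference of −0.34 (SE 0.14, limma adjusted p = 0.516). Both are junction genes. HET replicate 3 had the lowest mean of all 3 classes (8.12, 8.43 and 8.02), of the fibroblast markers (6.32) and the lowest erythroid mean of its group (5.75). Without it, Cldn5 differed by −0.38, Lsr by −0.21 and the class medians were 0.03, 0.01 and −0.12, with 19 members higher and 17 lower. The fibroblast markers were lower in HET mice in 8 of 8 cases (median −0.66), 5 with an unadjusted p below 0.05, against 8.8% of all genes. Without HET replicate 3 they were lower in 7 of 8 (median −0.39). Their mean per mouse spanned 7.53 to 8.42 in WT and 6.32 to 8.28 in HET mice, none was at the floor, and their part in the mural values was not tested.

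**Figure D4:**
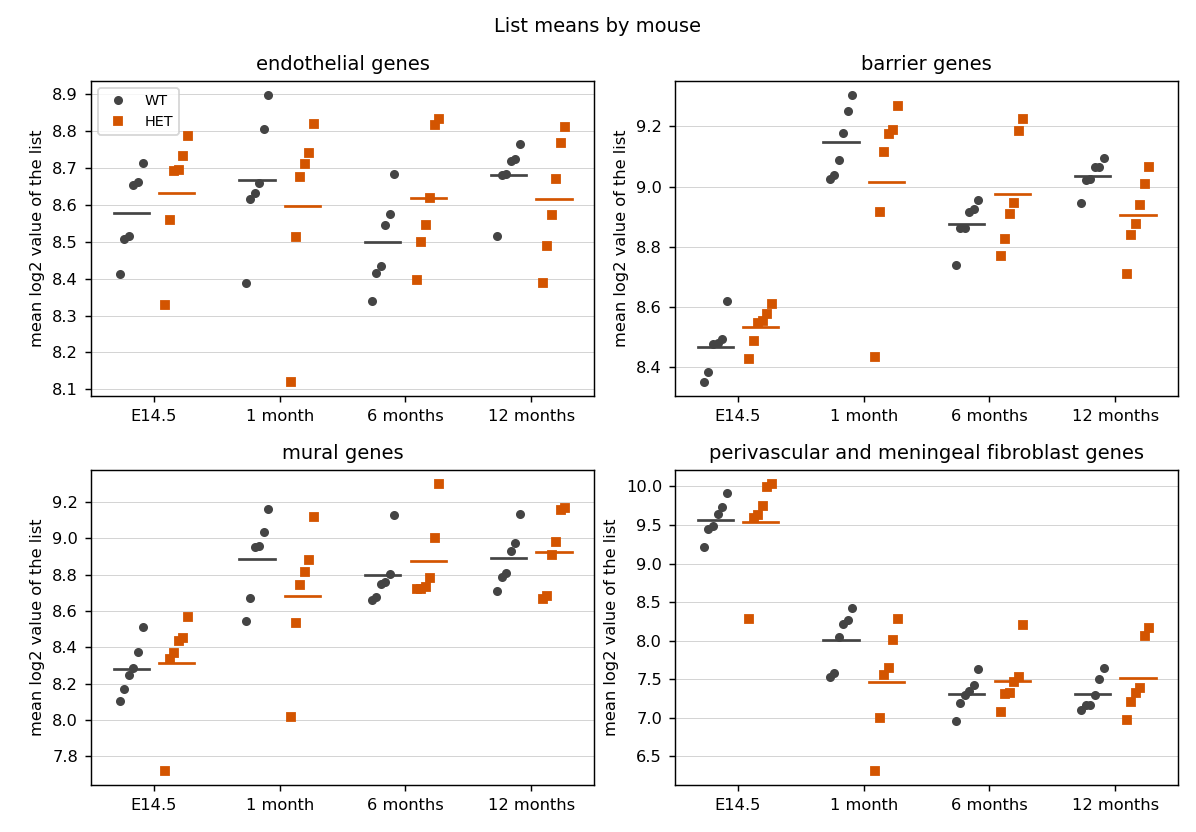
Mean log2 value per mouse of the endothelial, barrier and mural genes and of 8 fibroblast markers by age, WT as circles and HET as squares, with bars for group means. HET replicate 3 at 1 month is the lowest point of its age in all 4 panels, at 8.12, 8.43, 8.02 and 6.32, and HET replicate 2 at E14.5 is the lowest mural (7.72) and fibroblast (8.28) value of its age.

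At 6 months, 32 members were higher and 4 lower in HET mice, with class medians of 0.10, 0.06 and 0.12. Erg, an ETS factor of endothelial cells, measured 7.20, 7.32 and 7.59 in WT and 7.36, 7.59 and 7.89 in HET mice, a difference of 0.22 (SE 0.09, limma adjusted p = 0.62). Itm2a measured 9.74, 9.99 and 10.34 in WT and 10.09, 10.22 and 10.42 in HET mice, a difference of 0.22 (SE 0.09, limma adjusted p = 0.62). Rgs5 measured 11.78, 11.90 and 12.00 in WT and 11.86, 12.02 and 12.26 in HET mice, a difference of 0.13 (SE 0.06, limma adjusted p = 0.627). In each of these 3 genes the HET mice lay higher but within reach of the WT mice. Without HET replicate 2, which had the highest mural (9.30) and fibroblast (8.20) means of its age, the differences were 0.21, 0.24 and 0.14 and the class medians 0.06, 0.06 and 0.06, with 25 members higher and 11 lower. Markers of other cells moved beside these genes. All 6 astrocyte markers were higher in HET mice (median 0.12) and 6 of 8 fibroblast markers (0.24), while all 5 oligodendrocyte (−0.22) and all 6 choroid plexus markers (−0.59) were lower. None was called, 4 of the oligodendrocyte markers had an unadjusted p below 0.05, and the part of these markers was not tested.

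At 12 months Itm2a had the lowest adjusted p of the members between genotypes, while Mfsd2a had the largest difference. Itm2a measured 9.42, 9.71 and 10.15 in WT mice and 10.09, 10.23 and 10.31 in HET mice. The WT mice had spread downward and the HET mice stayed close together, with a slight overlap. The difference was 0.46 (SE 0.12, limma adjusted p = 0.208). It was called in 1 fit of all 48 samples (limma adjusted p = 0.0419) and without WT replicate 3 (0.53, limma adjusted p = 0.0447). Those fits called 520 and 251 genes in all, against 8 in the main comparison. Mfsd2a measured 8.41, 9.18 and 9.73 in WT and 8.17, 8.51 and 8.92 in HET mice, with overlap, a difference of −0.57 (SE 0.20, limma adjusted p = 0.317). Ly6c1 measured 8.85, 9.70 and 10.02 in WT and 8.75, 9.06 and 9.19 in HET mice, with overlap, a difference of −0.47 (SE 0.17, limma adjusted p = 0.313). Without WT replicate 3 both were called (−0.71, adjusted p = 0.0978, and −0.60, adjusted p = 0.0738), when 251 genes were called in all. Without WT replicate 6 Itm2a differed by 0.46, Mfsd2a by −0.45 and Ly6c1 by −0.37, and 0 members were called (limma adjusted p = 0.276, 0.444 and 0.439).

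The other members with an unadjusted p below 0.05 were lower in HET mice, with 1 exception. Sox18 measured 7.67, 7.78 and 7.93 in WT and 6.83, 7.42 and 7.90 in HET mice (−0.38, SE 0.14). Lsr measured 7.19, 7.62 and 7.84 in WT and 6.94, 7.34 and 7.49 in HET mice (−0.33, SE 0.12). Pecam1 measured 9.26, 9.40 and 9.53 in WT and 8.97, 9.18 and 9.38 in HET mice (−0.23, SE 0.07). In all 3 the HET range began below the WT range and ended inside it. Podxl measured 10.05, 10.48 and 10.58 in WT and 9.87, 10.22 and 10.43 in HET mice (−0.24, SE 0.10). Slc2a1 measured 11.06, 11.36 and 11.63 in WT and 10.76, 11.07 and 11.48 in HET mice (−0.24, SE 0.11). Esam, an endothelial adhesion gene, measured 8.27, 8.47 and 8.59 in WT and 8.13, 8.27 and 8.43 in HET mice (−0.18, SE 0.08). These also overlapped. Slco1a4 was the exception, with 10.02, 10.06 and 10.48 in WT and 10.20, 10.40 and 10.53 in HET mice (0.20, SE 0.09). The adjusted p values of these 7 genes in limma lay between 0.283 for Pecam1 and 0.416 for Slco1a4. No mural gene was in the group, and the class medians were −0.07, −0.12 and 0.04 (−0.11, −0.13 and 0.04 without WT replicate 6). HET replicate 4 was kept in both fits. It had the lowest endothelial (8.39) and barrier (8.71) means of its age and was the lowest HET mouse for Sox18, Pecam1, Podxl and Esam. A list of 20 further barrier genes did not share the direction of the barrier class. In it 14 genes were higher and 6 lower in HET mice (median 0.04). None was called, and 4, all higher, had an unadjusted p below 0.05, against 6.18% of all genes.

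**Figure D5:**
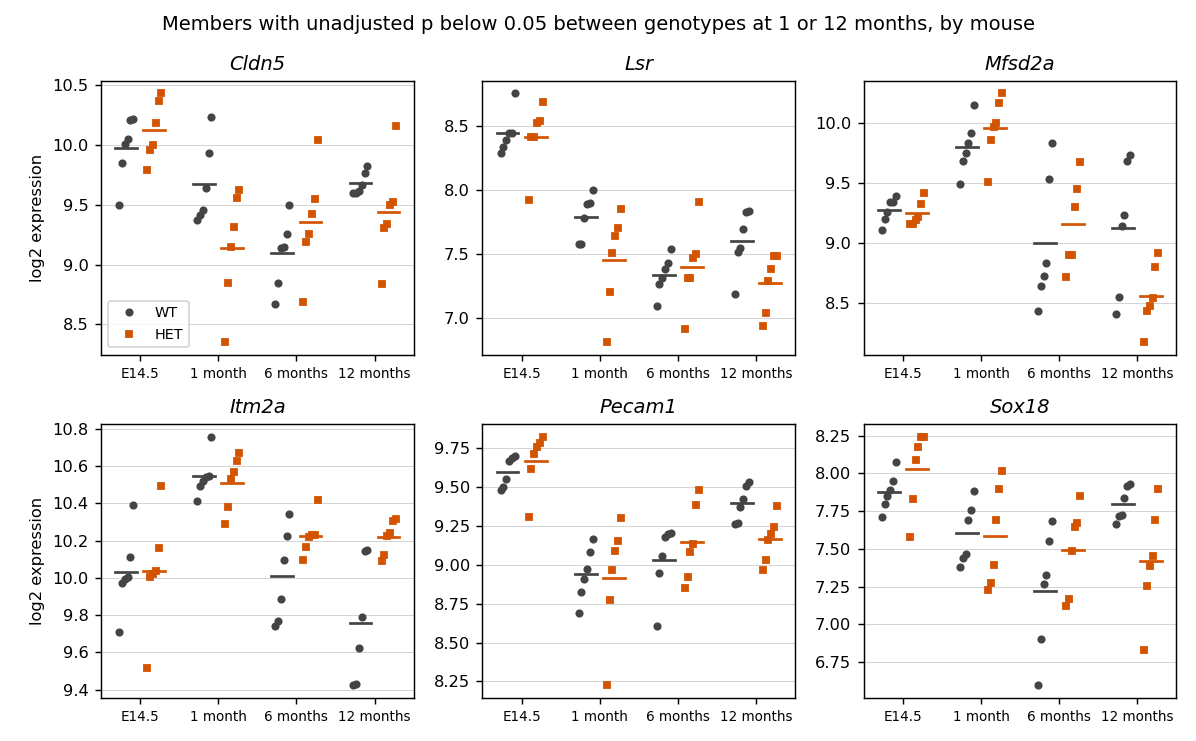
Log2 expression of 6 members in each of 48 mice by age, WT as circles and HET as squares, with bars for group means. At 12 months Itm2a is higher in HET mice (means 10.22 and 9.76) and the other 5 are lower, with overlap between genotypes in every panel and at every age.

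Whether the genotype effect differed between ages was tested in 1 fit of all 48 samples. From 6 to 12 months 0 of 36 members were called in limma (0.0578% of all genes), and 4 had an unadjusted p below 0.05 (8.68% of all genes). These were Mfsd2a (−0.73, SE 0.27), Ly6c1 (−0.66, SE 0.22), Sox18 (−0.65, SE 0.22) and Pecam1 (−0.34, SE 0.17), with adjusted p values from 0.352 to 0.561. Without WT replicate 3 of 12 months Ly6c1 was called (−0.79, limma adjusted p = 0.0767). That fit called 139 genes in all, against 10 with every mouse kept. From E14.5 to 12 months 0 were called (0.0635% of all genes) and 4 had an unadjusted p below 0.05 (11.5% of all genes). These were Mfsd2a (−0.54), Sox18 (−0.53), Esam (−0.31) and Itm2a (0.45), so that the sign for Itm2a was opposite to the other 3. Without the mice that stood apart at these ages 0 members were called in either comparison, and from 6 to 12 months Mfsd2a differed by −0.50, Ly6c1 by −0.50, Sox18 by −0.59 and Pecam1 by −0.28. These comparisons share the mice of an age with each other and with the genotype comparisons above.

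Mice also differed from each other in the means of the vascular classes. Within an age and after removal of the group mean, the endothelial and barrier means deviated to the same side in 36 of 48 mice, the endothelial and mural means in 36, the barrier and mural means in 34 and all 3 in 29. At 1 month the deviations reached from −0.48 to 0.23 for endothelial, −0.58 to 0.25 for barrier and −0.67 to 0.43 for mural genes, and HET replicate 3 was the lowest in all 3 classes. Without that mouse they reached from −0.28 to 0.23, −0.22 to 0.16 and −0.34 to 0.30. At 12 months they spanned −0.23 to 0.20, −0.20 to 0.16 and −0.26 to 0.24. The classes share their libraries, no other gene list was set beside these counts, and no test was made of this description.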

How the data were processed

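RNA-seq of the cortex of 48 male mice was analysed from 1 table. Per the labels, the study's methods and the submitters' processing notes, the authors filtered and trimmed reads, aligned them to mm9 with STAR 2.5.2b, quantified transcripts with Salmon 0.11.3 and made variance-stabilized log2 values with DESeq2, in a model with a batch that is not named in the sources used here. The deposited log2 values cover 24444 genes. The methods name stranded, polyA-selected KAPA libraries, the labels a TruSeq kit. The means of replicates 1 to 3 and 4 to 6 were equal for every gene within 3.38e-14, so a difference between these sets had been removed, and an alternative took the sets as a covariate. The values hold no read counts, so depth per gene is unknown and precision comes from the SD of 6 mice per group. Differences understate changes of genes near the floor. No pair of samples of a group was a duplicate.

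Genotypes were compared within each age and ages within each genotype with limma 3.58.1 (trend) in R 4.3.3 on the 12 samples compared, and differences of genotype effects in 1 fit of all 48. Genes with a mean at least 0.5 above the floor of 2.1433 were tested, with Benjamini-Hochberg adjustment over all of them. The fits were tested on simulated data. The members and the marker lists (vascular signalling, further barrier and mural genes, fibroblasts, erythroid cells, microglia, astrocytes, neurons, oligodendrocytes, choroid plexus and other brain regions) were chosen with earlier results of these data known. Values of every group are given for members with an unadjusted p below 0.05 between genotypes and for the member with the largest rise and fall per class and WT step; of the other lists, those with the largest rise and fall from E14.5 to 1 month are named, and Col3a1, Esam and other members were named for their counts after the values were seen. Alternatives were a replicate block, 1 fit of all samples, other filters and variance models, other scalings, covariates, a stricter threshold and leaving out each mouse. Mice of a group are the replicates. The p-values set each difference against the spread between mice, which limma estimated with a trend over all genes tested. Upstream bases came from RefSeq. Python 3.11.15 with matplotlib drew the figures.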

Additional observations from a re-analysis of the deposited data

Results flagged for a closer look

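In 19 of 288 combinations of a member, genotype and age, 1 of the 6 mice lay far from the other 5 by Dixon's test at the 95% level, and chance alone gives about 1 in 20. The HET embryos held 6 of the 19. In HET replicate 2 at E14.5 these were Esam (8.21), Lsr (7.92), Vtn (9.21), Acta2 (5.29) and Myh11 (4.25), each the lowest of its group, and Slco1a4 (6.998), the highest. This embryo had the lowest mural mean of its age, and the class medians without it are given above.

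Among WT embryos, Erg was low in replicate 5 (6.96), Lsr high in replicate 6 (8.76) and Myh11 high in replicate 4 (5.22). At 1 month, Vwf was low in WT replicate 6 (7.99) and Ly6c1 low in HET replicate 3 (9.02). At 6 months, Emcn (6.65) and Ocln (7.94) were low in WT replicate 3 and Foxq1 (6.44) in WT replicate 1, while the contractile genes Acta2 (9.204) and Tagln (8.45) were high in HET replicate 2. At 12 months, Flt1 was low in WT replicate 6 (10.50), and Erg (7.16) and Slc16a1 (9.95) were low in HET replicate 6.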

How the results depend on the processing

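The class medians moved by less than 1 SD between mice under every alternative. The number of members called from E14.5 to 1 month stayed within 29 to 30 in WT and 30 to 33 in HET mice when single mice were left out. From 1 to 6 months it was 9 in WT mice, in place of 14, in 1 fit of all samples, with no filter, with no variance trend and at an adjusted p below 0.05, and 10 to 16 with single mice left out (5 to 9 in HET mice). From 6 to 12 months it was 0 to 1 in WT mice. Leaving out WT replicate 4 of 6 months gave Cldn5 (0.67, limma adjusted p = 0.0364), when 2 genes were called in all. In HET mice it was 0, in place of 1, in 1 fit of all samples, with no filter, no trend, robust variance, an adjusted p below 0.05 and without HET replicate 2 of 6 months, chosen after seeing the data, and 0 to 1 with single mice left out. Between genotypes at 12 months it was 1 in the fit of all samples, where 520 genes were called in all, against 8 in the main comparison. With single mice left out it was 0 to 3, and for the difference from 6 to 12 months 0 to 1. Slc2a1 from 6 to 12 months in WT mice turned to 0.002996 under quantile normalisation and to 0.0928, 0.0588 and 0.0253 without WT replicate 2 of 6 months, replicate 3 of 6 months and replicate 3 of 12 months.

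Samples share replicate numbers, but nothing in the labels ties a number to a litter or day. Deviations of same-numbered WT and HET embryos correlated at 0.23 on average, with 4 of 6 pairs over 0.1, and at 0.02, 0.05 and −0.03 at the older ages. With a replicate block the count from 1 to 6 months in HET mice was 12, 8 of them rises and 4 falls, with the 6 calls of the fit without it among them, and that from 6 to 12 months 0; it stayed within 1.5 times in the other comparisons. Where causes of these changes were not shown by the alternative itself, the cause was not tested.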

Other observations

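The other genes of the vascular lists were followed through the adult ages and between genotypes as values. From 1 to 6 months in WT mice, 5 of 38 vascular signalling genes fell and 0 rose, 3 further barrier genes rose and 4 fell of 20, and 3 of 16 further mural genes fell and 0 rose, beside 24.6% of all genes called. From 6 to 12 months 0 of each list were called in limma in WT mice, with 4, 2 and 3 genes at an unadjusted p below 0.05, against 6.75% of all genes. Of these 3, 1 and 3 were higher at 12 months, and the list medians were 0.03, −0.04 and 0.06. In the further barrier list 6 genes were higher and 14 lower. Between genotypes 0 genes of these 3 lists were called at any age in limma. At 6 months 5 of the 38, 5 of the 20 and 1 of the 16 genes had an unadjusted p below 0.05, against 7.59% of all genes. Of the signalling genes 4 were higher in HET mice and Pgf lower, of the barrier genes 4 were higher and Tfrc lower, and the mural gene was lower. Of those named for their step after E14.5, Slco1c1 was 0.28 higher in HET mice (SE 0.07, limma adjusted p = 0.266) and S1pr1 0.14 higher (SE 0.05, limma adjusted p = 0.522). Both had changed in the same direction from E14.5 to 1 month in WT and HET mice, by 2.66 and 2.68 for Slco1c1 and by 2.52 and 2.41 for S1pr1. At 1 month Zic1 was 0.62 lower (SE 0.23, limma adjusted p = 0.448) and Cnn1 0.47 lower (SE 0.21, limma adjusted p = 0.55) in HET mice, where the 8 fibroblast markers were also lower (median −0.66). Without HET replicate 3 Zic1 was 0.51 lower and Cnn1 0.44 lower, and the fibroblast median was −0.39.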
